A study of Homo sapiens with 6 samples.

Results

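MT1-MMP, the membrane-type matrix metalloproteinase encoded by MMP14, was examined here with the proteins that surround it at the cell surface: its substrate proMMP2 (MMP2), the inhibitor and adaptor TIMP2, the convertase FURIN and the inducer basigin (BSG). The members were taken as all probe sets whose single gene symbol in the platform annotation is MMP14, MMP2, TIMP2, FURIN or BSG, which gave 5 of 11963 genes and 8 of the 22283 probe sets on the array. MMP14 had 4 probe sets and each of the other genes had 1. All 8 passed the filter on dim probe sets, set at a signal of 47.5. Differences below are on the log2(signal + 32) scale, from limma fitted to all arrays, with p-values adjusted over all genes tested and a threshold of 0.05.

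The data are 6 single-channel arrays of total RNA from HT1080, a line established from a human fibrosarcoma. The cells of 2 arrays had received a pGUS vector that makes GFP and an siRNA against MT1-MMP, those of 2 arrays the vector with an siRNA against integrin alpha3, and those of 2 arrays the vector with GFP alone (mock). GFP is thus shared by all 3 groups, and the mock vector carries no siRNA. The labels do not say whether the arrays of a group stand for separate cultures, so p-values cover the spread from array to array only, some of which may be technical, and 2 arrays a group limit the precision.

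MT1-MMP is made as a zymogen whose propeptide is cut by furin on the way to the surface, where the enzyme cleaves fibrillar collagen and other matrix proteins. TIMP2 binds the active site of an MT1-MMP molecule through its N-terminal domain and the hemopexin domain of proMMP2 through its C-terminal domain. A neighbouring MT1-MMP molecule that holds no inhibitor then cuts the proMMP2 of this complex, so TIMP2 promotes activation when scarce and blocks it when abundant. MMP2, a gelatinase that degrades denatured collagen and type IV collagen, is bound this way on HT1080 cells, which are a standard model for the reaction. Basigin, also called CD147 or EMMPRIN, is a glycoprotein of the immunoglobulin superfamily known for raising metalloproteinase production in neighbouring cells and as a chaperone of lactate transporters.

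Promoter sequences were at hand for MMP14, FURIN and BSG, and not for MMP2 or TIMP2. That of MMP14 is shown because MMP14 is the gene targeted by the MT1-MMP siRNA. MMP14 is also the only member whose siRNA arrays were all under both mock arrays, on its brightest probe set. The 120 bases that precede its start, as RefSeq gives them on GRCh38.p14 at chr14:22836465-22836584 on the plus strand, hold a single match to GGGCGG, the core letters of a GC box, which is in capitals and ends 61 bases before the start.
MMP14 promoter: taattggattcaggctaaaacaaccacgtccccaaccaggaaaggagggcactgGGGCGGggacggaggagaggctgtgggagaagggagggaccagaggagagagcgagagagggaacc
On either strand (GGGCGG or CCGCCC) such a match is common, in 34% of the 35116 promoters of the RefSeq table over a window of this length, so it is a description of the sequence only. SP1, a factor that binds GC boxes, is named here for this motif after its values were seen, and had signals of 59.3 and 86.5 in MT1-MMP siRNA cells, 79.5 and 109 in alpha3 siRNA cells, and 80.1 and 88.4 in mock cells. Against mock it was at -0.16 on the log2 scale with MT1-MMP siRNA (limma adjusted p = 0.803) and at 0.11 with alpha3 siRNA (adjusted p = 0.963). An siRNA acts on the mRNA and not on the promoter, and the sequence of neither siRNA was used here.

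The arrays were alike in overall signal, with medians between 72.9 and 83.1. The 18 spiked hybridisation controls were brighter with MT1-MMP siRNA, where their median ratio to the mock mean was 2.30 and 1.29, than with alpha3 siRNA (0.812 and 0.841) or in mock cells (0.927 and 1.07). Their part in the results was not tested. Of the mesenchymal markers, 13 of 14 were above the filter on dim probe sets, with summed signals of 72460 to 89160 with MT1-MMP siRNA, 52700 to 54980 with alpha3 siRNA and 53640 to 61400 in mock cells. EPCAM, CDH1, CDH5, PTPRC and MYH11, which mark epithelial, endothelial, leukocyte and smooth muscle cells, were all below it, and in all 2 of 8, 1 of 5, 2 of 5 and 1 of 5 markers of these cell types were above it. The summed smooth muscle markers, which rest on ACTA2, were at 862 to 1070 with MT1-MMP siRNA, 328 to 544 with alpha3 siRNA and 503 to 673 in mock cells, and the part of these markers in the results was not tested. ITGA3, the target of the other siRNA, had signals of 148 and 347 with alpha3 siRNA, against 1481 and 1634 with MT1-MMP siRNA and 1139 and 1290 in mock cells, so replicate 2 of the alpha3 siRNA group kept more ITGA3 signal than replicate 1.

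On every probe set of the targeted protease, the mean signal was lowest in the cells that carried its siRNA. On the brightest MMP14 probe set (160020_at), the signals were 812 and 717 in MT1-MMP siRNA cells, 999 and 1804 in alpha3 siRNA cells, and 1971 and 3064 in mock cells. The 3 groups did not overlap, and mock cells were the highest. In RNA of whole cultures, fewer cells with MMP14 mRNA and less of it per cell cannot be told apart. On 202827_s_at, MMP14 had signals of 729 and 536 in MT1-MMP siRNA cells, 691 and 1276 in alpha3 siRNA cells, and 1283 and 2238 in mock cells. Here the arrays of both siRNA groups overlapped, and the lowest mock array lay just above the highest alpha3 siRNA array. On 217279_x_at, MMP14 had 361 and 252 in MT1-MMP siRNA cells, 531 and 616 in alpha3 siRNA cells, and 684 and 1203 in mock cells. On 202828_s_at it had 246 and 152 in MT1-MMP siRNA cells, 357 and 771 in alpha3 siRNA cells, and 760 and 1324 in mock cells, where the highest alpha3 siRNA array was above the lowest mock array.

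**Figure D1:**
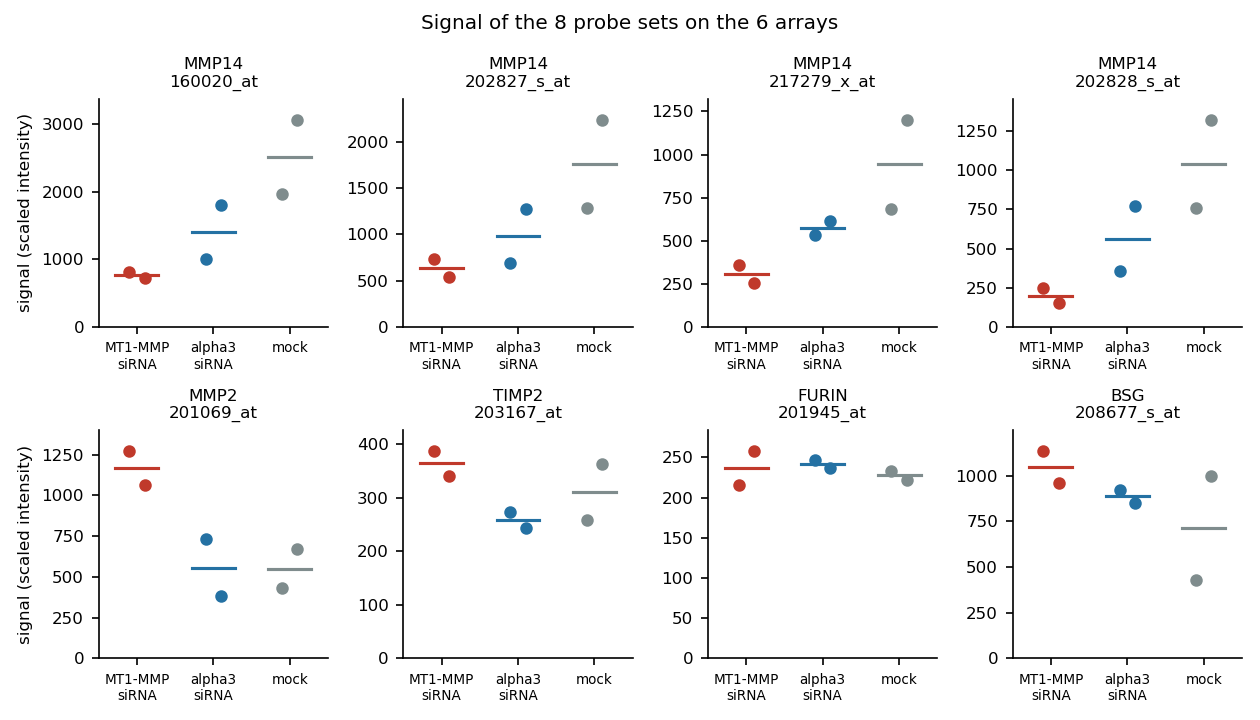
Signal (scaled intensity, linear axis from 0) of the 8 probe sets of MMP14, MMP2, TIMP2, FURIN and BSG on the 6 arrays, with points for arrays and lines for group means. On all 4 MMP14 probe sets both MT1-MMP siRNA arrays lie below both mock arrays (812 and 717 against 1971 and 3064 on 160020_at), and MMP2 shows the opposite order (1271 and 1066 against 430 and 672).

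The mean MMP14 signal left with MT1-MMP siRNA was 30.4% of the mock mean on 160020_at, 35.9% on 202827_s_at, 32.5% on 217279_x_at and 19.1% on 202828_s_at. With alpha3 siRNA the same shares were 55.7%, 55.9%, 60.8% and 54.1%. Of the 4 probe sets, 202828_s_at therefore had the lowest share left with MT1-MMP siRNA and stood close to the others with alpha3 siRNA. Set against the mock mean on the log2 scale, the probe sets of 1 array differed by 0.71 and 0.89 with MT1-MMP siRNA. With alpha3 siRNA they differed by 0.67 and 0.17. Both mock arrays were at 0.08, a value equal by construction because these 2 arrays make up the mean, so it is no independent baseline.

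MMP14 averaged 764 ± 67.2 with MT1-MMP siRNA and 2518 ± 773 in mock cells (SD, n = 2 each), a log2 fold change of -1.65 (95% interval -2.35 to -0.95), the 8th lowest of the 8045 genes tested. It did not pass the threshold of limma's test across all genes (adjusted p = 0.139, unadjusted p = 0.000573). Of the 5 members, 0 passed the adjusted threshold of 0.05 in this comparison, as did 0% of the 8045 genes. The probe set 202828_s_at had the lowest log2 fold change of all 11828 probe sets tested, -2.20 (95% interval -3.09 to -1.30, adjusted p = 0.116), and the other MMP14 probe sets stood at ranks 10, 17 and 22 from the lowest. The arrays of MT1-MMP siRNA and mock cells did not overlap for 4 of the 4 MMP14 probe sets, all lower, where 24.8% of all probe sets tested were lower without overlap. These 4 probe sets read the same gene on the same arrays, so they are not independent observations. Since MMP14 was the target, its place among the lowest fold changes checks the labels.

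MMP14 signal was also lower with alpha3 siRNA than in mock cells, by less and with more spread. The alpha3 siRNA arrays averaged 1402 ± 569 and the mock arrays 2518 ± 773 (SD, n = 2 each), a log2 fold change of -0.86 (95% interval -1.56 to -0.16, limma adjusted p = 0.851). Leaving out alpha3 siRNA replicate 2 gave -1.27 and leaving out replicate 1 gave -0.44. Replicates 1 and 2 also differed in other genes, such as ITGA3 (148 and 347) and MMP2 (730 and 384). A link of any of these to MMP14 was not tested. Of the 4 MMP14 probe sets, which are not independent, 3 had all alpha3 siRNA arrays below both mock arrays, where 17.7% of probe sets did. MMP14 differed between the siRNAs by -0.79 on the log2 scale (MT1-MMP siRNA against alpha3 siRNA, 95% interval -1.49 to -0.09, adjusted p = 0.173), and by -1.31 to -0.56 over its 4 probe sets. From lowest to highest, the group means of MMP14 thus ran from MT1-MMP siRNA over alpha3 siRNA to mock on all 4 probe sets, and no neighbours in that order differed past the threshold.

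MMP2, the gelatinase zymogen that MT1-MMP activates, had its highest signals in MT1-MMP siRNA cells, those with the least MMP14. Its signals were 1271 and 1066 in MT1-MMP siRNA cells, 730 and 384 in alpha3 siRNA cells, and 430 and 672 in mock cells. Both MT1-MMP siRNA arrays were above all 4 others, while alpha3 siRNA and mock arrays overlapped. MMP2 averaged 1169 ± 145 with MT1-MMP siRNA and 551 ± 171 in mock cells (SD, n = 2 each), a ratio of means of 2.12. The log2 fold change was 1.07 (95% interval 0.34 to 1.80), did not pass the threshold (limma adjusted p = 0.220, unadjusted p = 0.00934), and was the 108th highest of the 8045 genes. Leaving out mock replicate 1 gave 0.77 and leaving out mock replicate 2 gave 1.37. With alpha3 siRNA the mean was 557 ± 244 (SD, n = 2), a log2 fold change of -0.02 against mock (95% interval -0.75 to 0.71, adjusted p = 0.994). MT1-MMP siRNA exceeded alpha3 siRNA by 1.09 on the log2 scale (95% interval 0.36 to 1.82, adjusted p = 0.102).

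TIMP2, which tethers proMMP2 to MT1-MMP, varied little over the arrays, by 1.59 times between the lowest and the highest. Its signals were 387 and 341 in MT1-MMP siRNA cells, 274 and 243 in alpha3 siRNA cells, and 258 and 364 in mock cells. The mock arrays spanned much of that range and overlapped with both siRNA groups, whereas the siRNA groups did not overlap with each other. The log2 fold change against mock was 0.22 with MT1-MMP siRNA (95% interval -0.28 to 0.72, limma adjusted p = 0.679) and -0.22 with alpha3 siRNA (95% interval -0.72 to 0.27, adjusted p = 0.915). Without mock replicate 1 the first was -0.00098, and without mock replicate 2 the second was -0.0015. Between the siRNAs the difference was 0.45 (95% interval -0.05 to 0.95, adjusted p = 0.256).

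FURIN, the convertase that removes the propeptide of MT1-MMP, had the narrowest range of the members, with 1.20 times between its lowest and highest array. Its signals were 215 and 258 in MT1-MMP siRNA cells, 247 and 237 in alpha3 siRNA cells, and 234 and 222 in mock cells. Both mock arrays lay within the MT1-MMP siRNA pair and just below the alpha3 siRNA pair. Against mock FURIN was at 0.04 on the log2 scale with MT1-MMP siRNA (95% interval -0.39 to 0.48, limma adjusted p = 0.941) and at 0.08 with alpha3 siRNA (95% interval -0.36 to 0.52, adjusted p = 0.966). Between the siRNAs FURIN differed by -0.03 (95% interval -0.47 to 0.40, adjusted p = 0.935). These intervals leave room for differences of up to about 0.5 on the log2 scale in any comparison.

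BSG had signals of 1136 and 963 in MT1-MMP siRNA cells, 924 and 853 in alpha3 siRNA cells, and 428 and 1000 in mock cells. The 4 siRNA arrays were close together, and the mock arrays differed from each other by 2.33 times, the widest ratio within any pair over the 8 probe sets. On the log2 scale BSG differed from mock by 0.65 with MT1-MMP siRNA (95% interval -0.13 to 1.42, limma adjusted p = 0.416) and by 0.42 with alpha3 siRNA (95% interval -0.36 to 1.19, adjusted p = 0.915). Both rested on mock replicate 1, since without it they were 0.06 and -0.16, and without mock replicate 2 they were 1.23 and 1.00. Against alpha3 siRNA, MT1-MMP siRNA was at 0.23 (95% interval -0.55 to 1.00, adjusted p = 0.725).

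**Figure D2:**
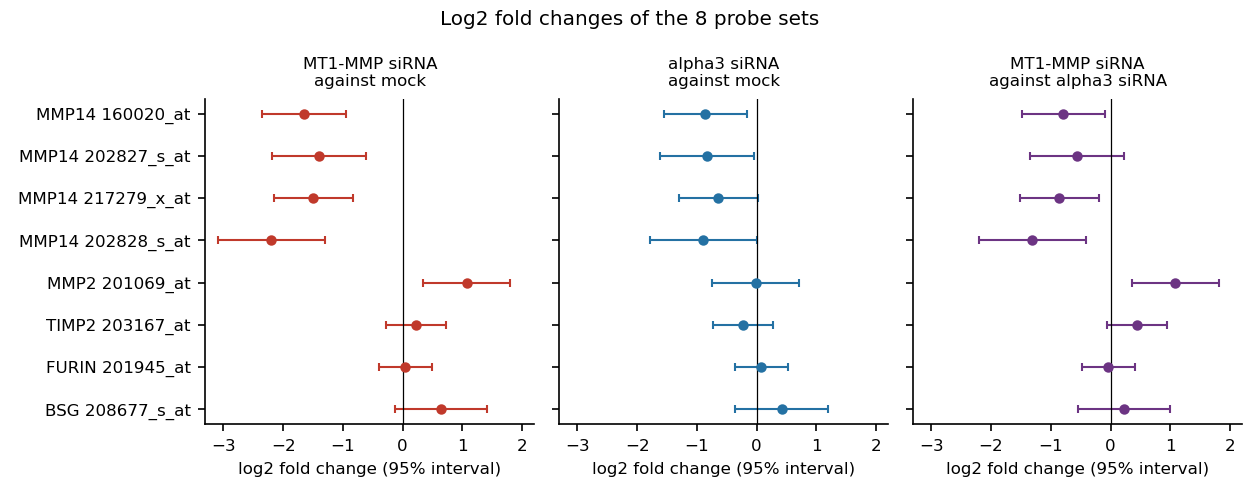
Log2 fold changes of the 8 probe sets in the 3 comparisons, with 95% intervals from limma as bars. With MT1-MMP siRNA against mock, the 4 MMP14 probe sets lie between -2.20 and -1.39 and MMP2 at 1.07, with intervals that leave out 0, while TIMP2, FURIN and BSG have intervals that include 0.

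At an unadjusted p under 0.05, 2 of the 5 members (MMP14 and MMP2) stood out with MT1-MMP siRNA against mock, where 14.4% of all genes did. With alpha3 siRNA against mock it was 1 of 5 (MMP14, 5.73% of all genes), and between the siRNAs 2 of 5 (MMP14 and MMP2, 23.4% of all genes). After adjustment, 0 of 5 passed with alpha3 siRNA against mock (0.0249% of all genes) and 0 of 5 between the siRNAs (1.39%). The arrays did not overlap for 2 of 5 members with MT1-MMP siRNA against mock (MMP14 lower and MMP2 higher, 49.9% of all genes in either direction) and for 2 of 5 with alpha3 siRNA against mock (MMP14 lower and FURIN higher, 34.4%). Between the siRNAs they did not overlap for 4 of 5, all but FURIN, where 53.9% of all genes did not. With 2 arrays a group, arrays that do not overlap are thus common. Both comparisons against mock use the same mock arrays, and all 3 comparisons share arrays with each other.

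**Figure D3:**
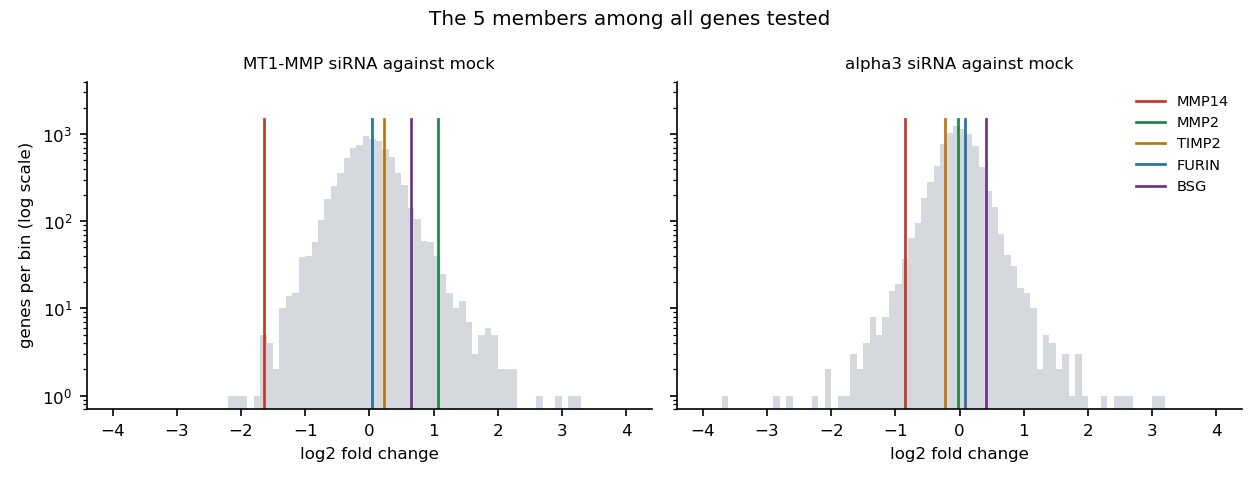
Distribution of log2 fold changes over the 8045 genes tested (grey, genes per bin on a log scale), with the 5 members as vertical lines. MMP14 lies in the lower tail with MT1-MMP siRNA (-1.65) and less far out with alpha3 siRNA (-0.86), and MMP2 lies in the upper tail with MT1-MMP siRNA (1.07) and at the centre with alpha3 siRNA (-0.02).

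Because activation of proMMP2 depends on how much TIMP2 and proMMP2 there is for each MT1-MMP molecule, the change of TIMP2 and of MMP2 relative to MMP14 was followed on each array, with the mock mean set to 0 on the log2 scale. TIMP2 relative to MMP14 was at 1.87 on both MT1-MMP siRNA arrays, at 1.12 and 0.14 on the alpha3 siRNA arrays, and at 0.09 and -0.09 on the mock arrays. MMP2 relative to MMP14 was at 2.75 and 2.68 with MT1-MMP siRNA, at 1.69 and -0.01 with alpha3 siRNA, and at 0.01 and -0.01 in mock cells. The replicate arrays of MT1-MMP siRNA and of mock cells were closer on both measures than on MMP14 alone, whereas the alpha3 siRNA arrays lay far apart. As ratios of signal + 32, TIMP2 over MMP14 was 3.65 times and MMP2 over MMP14 6.58 times that of mock cells with MT1-MMP siRNA. In an exact two-sided permutation test over arrays both gave p = 0.333, the smallest that 2 arrays against 2 allow. MMP14 was the target of this siRNA and was itself at -1.65, so any gene that did not fall with it rises in this measure. On their own, TIMP2 was at 0.22 and MMP2 at 1.07 against mock. With alpha3 siRNA the ratios were 1.55 and 1.79 times those of mock cells (exact permutation p = 0.333 and 1), and without alpha3 siRNA replicate 1 the log2 differences were 0.14 and -0.01. These values compare changes between groups, not the amounts of the mRNAs or proteins.

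**Figure D4:**
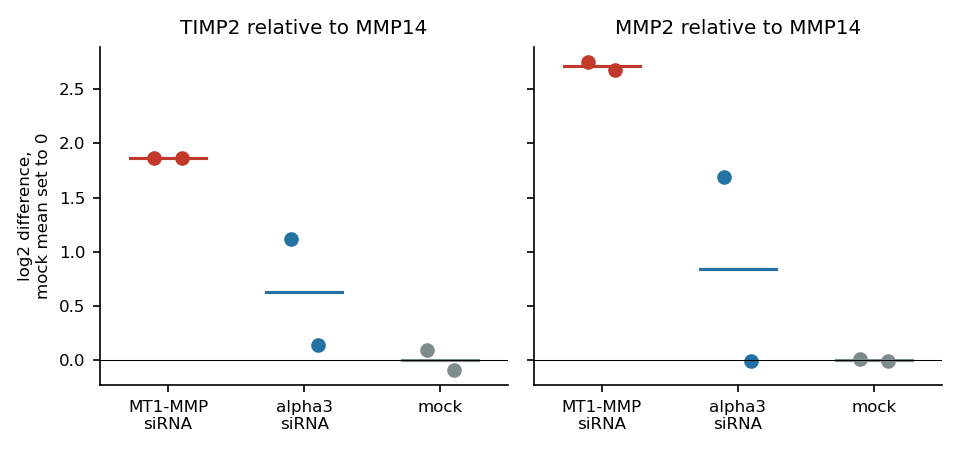
Log2 difference of TIMP2 (left) and MMP2 (right) from MMP14 on each array, with the mock mean set to 0, points for arrays and lines for group means. Both MT1-MMP siRNA arrays are near 1.87 for TIMP2 and near 2.7 for MMP2, and the alpha3 siRNA arrays are split (1.12 and 0.14, and 1.69 and -0.01).

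The genes whose signal followed MMP14 most closely over the 6 arrays, by the root mean square difference of centred log2 values, were STEAP1 (0.252), GALR3 (0.275), ZNF32 (0.278), SEC23IP (0.303) and HIRIP3 (0.310), against a median of 0.771 over all genes. STEAP1, a protein of the plasma membrane, had signals of 303 and 342 in MT1-MMP siRNA cells. It had 504 and 701 in alpha3 siRNA cells, and 777 and 914 in mock cells. Its order of groups is that of MMP14, which follows from how it was picked. GALR3 was dim, with signals of 31.6 to 127, and both of its MT1-MMP siRNA arrays were under the filter signal. For MMP2 the closest were GOLGA8N (0.0886), SIDT2 (0.110), CA12 (0.117), ITGB5 (0.132) and NAMPT (0.132), against a median of 0.632. CA12, a carbonic anhydrase of the cell surface, had signals of 864 and 759 in MT1-MMP siRNA cells, 551 and 269 in alpha3 siRNA cells, and 287 and 581 in mock cells. ITGB5, the beta subunit of a vitronectin receptor, had 3025 and 2216 in MT1-MMP siRNA cells, 1403 and 826 in alpha3 siRNA cells, and 1053 and 1667 in mock cells. In each of these, alpha3 siRNA replicate 1 and mock replicate 2 lay above alpha3 siRNA replicate 2 and mock replicate 1, as for MMP2. Such likeness also follows from how these genes were picked. GOLGA8N has near-identical paralogs that its probe set may also read, so that name is uncertain.

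Of the 5 membrane-type metalloproteinases tested, MMP14 included, 4 were above 0 with MT1-MMP siRNA against mock and MMP14 alone was below it. Among all genes 50.3% were above 0. Of the 5, 0 passed in either direction, and the median log2 fold change was 0.22, against 0.00 over all genes. MMP17, a membrane-type enzyme held by a lipid anchor, was dim and had signals of 133 and 84.0 in MT1-MMP siRNA cells, 55.9 and 31.1 in alpha3 siRNA cells, and 37.8 and 30.8 in mock cells. Its log2 fold change with MT1-MMP siRNA was 1.06 (SE 0.29, limma adjusted p = 0.199), over mock signals that were both under the filter signal of 47.5. MMP17 was thus tested because of its signal with MT1-MMP siRNA, and its fold over mock is uncertain. MMP16, which can also activate proMMP2, had 85.3 and 61.3 with MT1-MMP siRNA and 54.5 and 53.1 in mock cells (0.29, adjusted p = 0.646).

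Among metalloproteinase inhibitors, all 4 genes tested were above 0 with MT1-MMP siRNA against mock (median 0.66), where 50.3% of all genes were. Of the 4, 0 passed the threshold, and TIMP2 was at -0.00098 without mock replicate 1. With alpha3 siRNA 3 of the 4 were below 0 (median -0.19), where 48% of all genes were above 0. TIMP3, which binds to the matrix, had signals of 478 and 527 in MT1-MMP siRNA cells, 106 and 54.5 in alpha3 siRNA cells, and 156 and 70.1 in mock cells. It was higher with MT1-MMP siRNA than with alpha3 siRNA by 2.29 on the log2 scale (SE 0.33, limma adjusted p = 0.0287). This call was lost without MT1-MMP siRNA replicate 1 (2.36, adjusted p = 0.153) or replicate 2 (2.22, adjusted p = 0.0713), without alpha3 siRNA replicate 2 (1.95, adjusted p = 0.100), and with no filter on dim probe sets (2.29, adjusted p = 0.0630). RECK, a membrane-anchored inhibitor of MT1-MMP and MMP2, had 336 and 279 in MT1-MMP siRNA cells, 250 and 170 in alpha3 siRNA cells, and 123 and 165 in mock cells (0.96 with MT1-MMP siRNA against mock, adjusted p = 0.180). TIMP1, which inhibits MT1-MMP poorly, had 3387 and 2530 with MT1-MMP siRNA and 2018 and 2545 in mock cells (0.36, adjusted p = 0.440).

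Of 7 proprotein convertases and regulators, 3 were above 0 and 4 below with MT1-MMP siRNA, with a median of -0.11 and 0 past the threshold. PCSK7, a convertase of the same family as furin, had signals of 139 and 149 in MT1-MMP siRNA cells, 198 and 185 in alpha3 siRNA cells, and 254 and 206 in mock cells (-0.57 with MT1-MMP siRNA, limma adjusted p = 0.266). SERPINB8, a serpin that inhibits furin, had 236 and 252 in MT1-MMP siRNA cells, 280 and 296 in alpha3 siRNA cells, and 339 and 402 in mock cells (-0.54, adjusted p = 0.268). MBTPS1, the site-1 protease of the Golgi, had 569 and 630 in MT1-MMP siRNA cells, 523 and 567 in alpha3 siRNA cells, and 457 and 400 in mock cells (0.46, adjusted p = 0.315). In each of these 3 the alpha3 siRNA arrays lay between the other groups. Basigin and its 5 tested partners split 3 above and 3 below 0 (median 0.07, 0 past the threshold). PPIA, the cyclophilin that binds basigin, had 17081 and 17029 with MT1-MMP siRNA and 14928 and 13526 in mock cells (0.26, adjusted p = 0.368), and PPIB had 3155 and 3428 against 2613 and 2772 in mock cells (0.29, adjusted p = 0.446).

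Genes of proteins that bind MT1-MMP at the surface leaned upward, with 13 of 15 above 0 with MT1-MMP siRNA against mock. Among all genes 50.3% were above 0. The list had a median of 0.33 and 0 past the threshold, and was chosen with earlier results of these data known. CD44, the hyaluronan receptor that binds and is shed by MT1-MMP, had 7318 and 6665 in MT1-MMP siRNA cells, 4739 and 4508 in alpha3 siRNA cells, and 3735 and 4394 in mock cells (0.78, limma adjusted p = 0.148). ITGB1, the beta1 integrin subunit, had 7820 and 5868 in MT1-MMP siRNA cells, 4057 and 4429 in alpha3 siRNA cells, and 3894 and 4296 in mock cells (0.72, adjusted p = 0.176). ITGA2, a collagen-binding alpha subunit, had 2301 and 1505 in MT1-MMP siRNA cells, 1195 and 300 in alpha3 siRNA cells, and 489 and 1966 in mock cells (0.89, adjusted p = 0.592), and its mock arrays spanned nearly the whole range of the others. With alpha3 siRNA 8 of the 15 were above 0 and the median was 0.01, and ITGA3, the target, was at -2.25 (adjusted p = 0.136), and it passed the threshold without alpha3 siRNA replicate 2 (-2.79, adjusted p = 0.0164). Between the siRNAs ITGA3 was higher with MT1-MMP siRNA by 2.60 on the log2 scale (adjusted p = 0.0232). Leaving out either MT1-MMP siRNA array ended that call, at an adjusted p of 0.110 without the first and 0.0660 without the second.

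**Figure D5:**
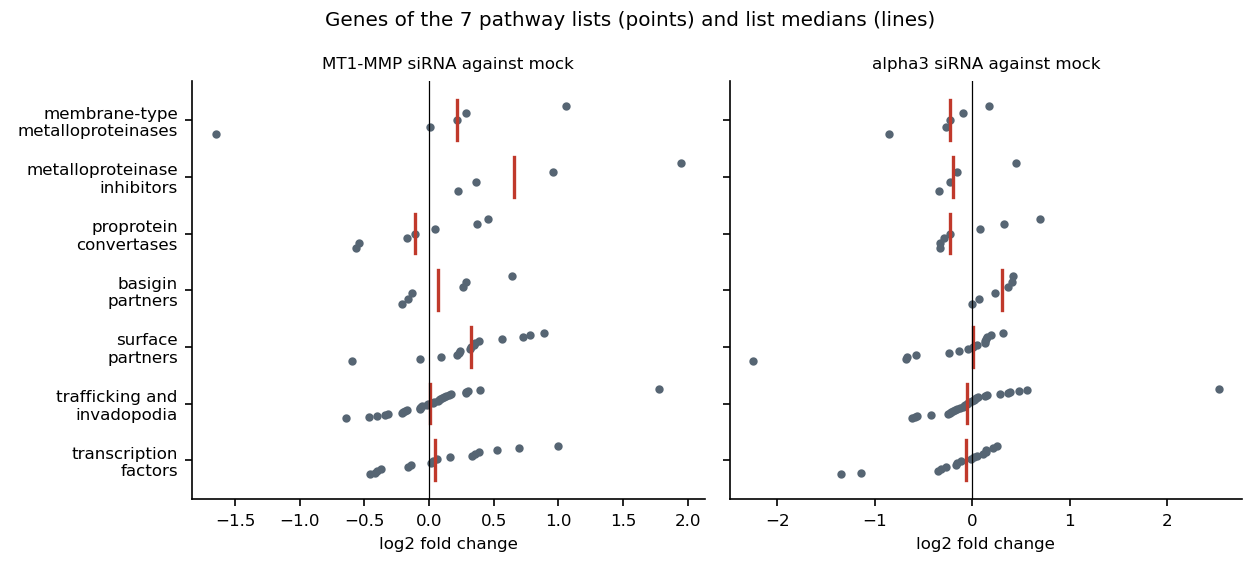
Log2 fold changes of the genes tested in 7 lists around MT1-MMP (points, MMP14, TIMP2, FURIN and BSG included in theirs) with the median of each list (red lines), for each siRNA against mock. With MT1-MMP siRNA the medians of the inhibitors (0.66) and of the surface partners (0.33) lie highest, and with alpha3 siRNA the same medians are -0.19 and 0.01.

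Genes of MT1-MMP transport and of invadopodia, the actin-based protrusions to which the protease is delivered, were balanced around 0 with MT1-MMP siRNA, 15 of 30 above and 15 below (median 0.01, 0 past the threshold). RAB4A, a GTPase of recycling endosomes, had signals of 230 and 89.0 in MT1-MMP siRNA cells, 259 and 272 in alpha3 siRNA cells, and 4.90 and 40.4 in mock cells (1.78 with MT1-MMP siRNA, adjusted p = 0.164, and 2.53 with alpha3 siRNA, limma adjusted p = 0.238). Both mock signals of RAB4A were under the filter signal of 47.5, so the gene was tested because of its signal in the siRNA groups, and its fold over mock is uncertain. ADI1, known as a protein that binds the cytoplasmic tail of MT1-MMP, had 462 and 515 with MT1-MMP siRNA and 941 and 646 in mock cells (-0.64, adjusted p = 0.260). RAB8A, which drives exocytosis of MT1-MMP, had 620 and 637 in MT1-MMP siRNA cells, 1008 and 1157 in alpha3 siRNA cells, and 863 and 899 in mock cells (-0.47, adjusted p = 0.289). Of 16 transcription factors studied as regulators of MMP14 or MMP2, 10 were above 0 with MT1-MMP siRNA (median 0.05) and 7 with alpha3 siRNA (median -0.07), with 0 past the threshold in both. The largest differences with MT1-MMP siRNA were those of TFAP2C (141 and 337, against 117 and 75.3 in mock cells, 1.00, adjusted p = 0.266), TWIST1 (185 and 148, against 93.0 and 86.8, 0.69, adjusted p = 0.260) and HIF1A (6473 and 4680, against 3397 and 4284, 0.52, adjusted p = 0.349).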

How the data were processed

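The authors deposited 1 linear intensity for each probe set and array. Leaving out the brightest and dimmest 2%, these average 250.1 on each array, which shows a scaling before deposit. How they were summarised, background-corrected or called as detected is not given in the sources used here. Of 22283 probe sets, 19065 had 1 gene symbol in the platform annotation. After raising values under 1 to 1, the analysis used log2(value + 32), which understates folds of dim genes. Probe sets with a mean log2 value above the 40th percentile (signal 47.5) were kept, and the brightest of a gene was used, leaving 8045 genes from 11828 probe sets. limma 3.58.1 in R 4.3.3 fitted 3 group means (lmFit, eBayes with intensity trend, 3 residual degrees of freedom), with Benjamini-Hochberg adjustment over all genes and a threshold of 0.05. A second fit took every probe set. The fit of genes was also run on simulated data with independent noise for each gene and array. That setting cannot show how the fit handles spread shared across genes, and no result here rests on it.

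The members and the 7 lists were chosen with earlier results of these data known. The text names all members, the 5 genes nearest to MMP14 and to MMP2, and from each list those past the threshold and the 3 of largest absolute log2 fold change with MT1-MMP siRNA. Listed genes below the filter or without a probe set of 1 symbol were not analysed here. No replicate pair shared more than 78 identical values. Alternatives were quantile and 75th percentile scaling, offsets of 1 and 100, other filters, averaged probe sets, all probe sets singly, no trend, 2-group fits, a replicate block and leaving out each array. Deviations of same-numbered arrays correlated at -0.176, -0.175 and 0.127 across genes, so the numbers were not taken to pair them. Figures were drawn with matplotlib 3.10.9.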

Additional observations from a re-analysis of the deposited data

How the results depend on the processing

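For the 5 members, 0 of 15 differences passed the threshold under any of the 17 alternatives in which single genes were read out. With MT1-MMP siRNA against mock, MMP14 stayed between -1.96 and -1.33, MMP2 between 0.77 and 1.37 and BSG between 0.063 and 1.23, all reached by leaving out an array, with MMP14 at an adjusted p of 0.0659 to 0.505. Some differences turned in sign. Without mock replicate 1, TIMP2 was at -0.00098 with MT1-MMP siRNA and BSG at -0.165 with alpha3 siRNA. FURIN was at -0.0702 with MT1-MMP siRNA without replicate 2 of that siRNA, and at 0.0803 between the siRNAs without replicate 1 of it. MMP2 with alpha3 siRNA was at 0.00734 under the common 75th percentile, 0.287 without mock replicate 2 and 0.419 without alpha3 siRNA replicate 2, and MMP2 over MMP14 was at -0.0132 without alpha3 siRNA replicate 1. TIMP3 with alpha3 siRNA was at 0.0988 without mock replicate 1 and between -0.783 and 0.0988 without any 1 array. Over all alternatives that left out an array, TIMP2 ranged from -0.00098 to 0.446 and FURIN from -0.0702 to 0.159 with MT1-MMP siRNA. With alpha3 siRNA MMP2 ranged from -0.453 to 0.419, BSG from -0.165 to 0.999 and MMP2 over MMP14 from -0.0132 to 1.69, and FURIN between the siRNAs from -0.149 to 0.0803.

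Counts of genes past the threshold moved more. With MT1-MMP siRNA against mock (0 genes, lowest adjusted p = 0.0537, and 1160 at an unadjusted p under 0.05) they were 1 under quantile normalization, 3 with an offset of 1, 6 with an offset of 100, 2 with mean probe sets, 2 with every probe set, 8 with only the groups compared, 11 with the replicate block and 0 to 8 without an array. With alpha3 siRNA against mock (2 genes) they were 1 under quantile normalization, 0 with an offset of 1, 1 with an offset of 100, 1 without a filter, 0 with a filter at the 60th percentile, 1 with only the groups compared, 1 with every probe set, 4 with the replicate block and 0 to 7 without an array. Between the siRNAs (112 genes) they were 69 with an offset of 1, 22 without a filter, 178 with a filter at the 60th percentile, 72 without the trend, 38 with only the groups compared and 0 to 78 without an array. The replicate block changed no call of a member, while TIMP3 with MT1-MMP siRNA against mock (1.95) passed with it at an adjusted p of 0.0486 and ITGA3 with alpha3 siRNA against mock (-2.25) at 0.0422. With the numbers of the mock arrays crossed, an alternative chosen after seeing the data, the block gave 51 and 7 genes against mock. Only these counts were taken from it, so whether members were among them is not known. The cause of these differences was not tested.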
